A study of Arabidopsis thaliana with 4 samples.

Results

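The 150 probe sets described here had the brightest signal in wild-type leaves of Arabidopsis thaliana among probe sets naming exactly 1 nuclear gene. On arrays of 22810 probe sets, 8730 besides the controls named no gene and 503 named several, and neither kind was ranked. Brighter nuclear transcripts may be among them. The 150 were taken from 13415 nuclear probe sets that name exactly 1 gene. These were ranked by the mean signal of the 2 wild-type arrays after 7 genes chosen by name and 137 probe sets of 7 gene families chosen by symbol had been set aside. The families were those with symbols beginning UGT, CYP, SCPL, BGLU, SWEET, EXP or XTH. Of the probe sets set aside, 8 were brighter than the last member, those of RCA, LHCB4.2, PSAE-1, PSAN, PRK, AT3G11630, cICDH and BGLU44. The 150 probe sets stand for 150 different loci, and all of them passed the filter on dim signals. A probe set's signal depends on its own probes as well as on its transcript, so the rank is an order of brightness and the arrays do not show which transcript had more copies. Whether bright probes were saturated cannot be seen in the deposited values. The members were chosen on wild-type signals, and these signals and the genotype differences computed from them are therefore given as descriptions.

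The arrays were Affymetrix ATH1 arrays, hybridised with biotin-labelled RNA from rosette leaves of 3-week-old plants. The wild type was accession Col-0, and KO-nudx19 plants, in the same accession, lack nudix hydrolase 19, an enzyme that hydrolyses NADPH. Plants of both genotypes spent 1 week on medium with 3% sucrose and 2 weeks on soil, with 16 h of light at 100 µmol per m2 per s and 25 °C, and 8 h of darkness at 22 °C. Each genotype had 2 arrays, numbered 1 and 2 in the labels, which state neither whether the plants were grown separately nor how many were pooled. The p-values below therefore measure only how far these arrays spread, which may be technical variation, and with 2 arrays per genotype their number limits the precision. The line or allele behind KO-nudx19 is not given in the sources used here, and the targeted gene had no named probe set, so the labels were not checked against it.

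In an illuminated leaf many of the nucleus's strongly expressed genes serve the chloroplast. They encode antenna proteins and small subunits of the photosystems, the enzymes that make chlorophyll, and those of the Calvin-Benson cycle and photorespiration. A further large share goes to protein synthesis and to general metabolism. Whole leaves were measured, in which fewer cells of a type and less RNA per cell cannot be told apart.

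Of the 150 loci, 34 carry a name or a described function in the annotation used, and 116 are known here by locus only. By role, 9 of the 34 belong to the photosystems and the thylakoid membrane, 3 to chlorophyll synthesis, 4 to carbon metabolism, 5 to redox enzymes and respiration, and 13 to other processes. Of 18 pathway lists, drawn from symbols, 10 had at least 1 member among the 150. All 3 named photosystem II probe sets were members, as were 1 of 13 glutathione S-transferases, 1 of 9 thioredoxins and peroxiredoxins and 0 of 8 histones. Both named photosystem I probe sets were among those set aside. In limma 0 probe sets of any list passed the genotype test at an adjusted p under 0.05, where 0% of all tested did. The lists for the small Rubisco subunit, carbonic anhydrases, lipid transfer proteins and cytosolic ribosomal proteins matched no probe set and were not analysed here. Genes of these groups under other symbols were missed, among them the member PGY1, a ribosomal protein gene. So were any on probe sets naming no gene or several. Of 26 leaf and other cell type markers, 1 had a named probe set, the root gene PYK10, with signals (number 1 first, here and below) of 607 and 794 on the wild-type pair and 544 and 471 on the KO-nudx19 pair. The leaf label was thus checked only through the photosynthesis genes among the brightest members.

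The members lie on all 5 nuclear chromosomes, with 42 on chromosome 1, 21 on chromosome 2, 32 on chromosome 3, 21 on chromosome 4 and 34 on chromosome 5. Chromosome 1 holds 28% of the members and 25.9% of all ranked probe sets, and chromosome 2 holds 14% and 16.4%. Only 1 pair of members are direct neighbours among protein-coding genes, AT2G27710 and AT2G27720.

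The wild-type means of the members ran from 12555 for LHCB4.1 to 2376 for GRXC2. Just inside the limit of 150 were CYTC-1, with a mean of 2388, AT5G14120, with 2379, and GRXC2. Just outside it were AT3G03150, with 2373, AT4G23670, with 2362, and AT3G16080, with 2360. The limit thus falls within a dense series of values, far closer together than the arrays of 1 genotype. On wild type replicate 1 alone, 139 of the 150 ranked in the first 150, on wild type replicate 2 alone also 139, and on both 128.

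Taken over the members, the median signal stood at 3336 and 3746 for the wild-type pair of arrays and at 3439 and 3729 for the KO-nudx19 pair. Their mean signal was 3759 and 4436 on the wild-type pair and 4180 and 4865 on the KO-nudx19 pair. The mean was highest on KO-nudx19 replicate 2 and lowest on wild type replicate 1, while the medians followed the replicate number. The trimmed mean over all probe sets was 200 on each array. The hybridisation controls, 18 probe sets whose targets do not come from the plant, averaged 620 and 411 (geometric means) on the arrays of wild type, below the 1054 and 1140 of KO-nudx19. The poly(A) controls, bacterial transcripts added to the RNA, stood at 116 (wild type) and 98.2 (KO-nudx19) where the number was 1, and at 19.9 and 21.0 where it was 2. The part of either in the results below was not tested.

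Most members had similar signals on all 4 arrays. The highest array exceeded the lowest by a median of 1.38-fold for the members and 1.53-fold for all 13648 probe sets tested. The tested set includes far dimmer probe sets, with means down to 38.2, and the members were not compared with others of like brightness. All 4 arrays lay within 1.2-fold of each other for 20 members, where 8.89% of all tested probe sets did so. They lay within 1.5-fold for 99 members, where 46.4% of all tested did so, and within 2-fold for 133 members, where 80.2% did. The evenest were AT5G19510, with signals of 3549 and 3639 on the wild-type pair and 3525 and 3469 on the KO-nudx19 pair, AT3G02080, with 3440 and 3399 against 3403 and 3587, and PGY1, with 2741 and 2750 against 2622 and 2771 (3 members singled out after their values were seen). PGY1 encodes a protein of the large cytosolic ribosomal subunit.

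Most of the 150 brightest probe sets had similar signals in both genotypes, and none passed the test between them. HIRD11, a dehydrin gene (AT1G54410), had the highest difference among them, with both KO-nudx19 arrays above both wild-type arrays. Other members also lay apart, by smaller gaps at the nearest values. Higher in KO-nudx19 were AT5G54940 (1.37-fold), AT2G45180 (1.26-fold), PSB27 (1.24-fold), which acts in photosystem II assembly, and the thylakoid gene CURT1C (1.23-fold). Without overlap 24 members were higher and 12 lower, the lower led by AT5G28500 (1.30-fold), where 10.5% and 11.8% of all tested were. In limma over 13648 probe sets, 0 members and 0% of all tested had an adjusted p under 0.05 (lowest adjusted p 1.00). At an unadjusted p under 0.05 there was 1 member, HIRD11, where 0.652% of all tested passed. With replicate number as a block in limma, 0 members and 0.0147% of all tested had an adjusted p under 0.05, and at an unadjusted p under 0.05 the count was 20 members, where 5.41% of all tested passed.

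The 2 genotypes did not overlap for 24 members that were higher in KO-nudx19, where 10.5% of all tested probe sets were, and for 12 that were lower, where 11.8% were. The remaining 114 overlapped. The split depended on the scaling: after quantile normalization 14 members were higher and 33 lower, and after centring each array on its median 15 were higher and 11 lower. The shares of all tested probe sets under these scalings are not given here, so the new counts are not read as a result about the members. The median log2 difference over the members was 0.059, against −0.00029 over all tested probe sets. It was −0.064 after quantile normalization and −0.061 without wild type replicate 1. The log2 difference was above 0 for 90 members and below 0 for 60. At least 1.5-fold higher in KO-nudx19 were 3 members (HIRD11, AT5G27700 and PSB27), where 2.98% of all tested were, and 2 were at least 1.5-fold lower (AT5G11420 and CP5), where 1.8% were. At 2-fold there were 0 members in either direction, where 0.506% of all tested were higher and 0.249% lower. For the members' log2 differences, 95% confidence intervals reached 0.63 to either side in the median, that is 1.55-fold, and with replicate number as a block they reached 0.40. The log2 difference was above 0 within both numbers for 59 members, where 24.3% of all tested were, and below 0 within both for 29, where 24.8% were.

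Differences above 0 were most frequent among the brightest members. Of the first 30 by rank, 28 had a log2 difference above 0, with a median of 0.20 (0.18 between the replicates 1, 0.29 between the replicates 2). The median over all tested probe sets was −0.00029. In 9 of the 30 the genotypes did not overlap, all higher in KO-nudx19. Of all tested probe sets 10.5% were higher and 11.8% lower without overlap. The wild-type signals that set the rank also enter each difference, so these counts are no test. In the next groups of 30 the medians were 0.054, −0.0089, 0.027 and −0.036. After quantile normalization, which gives all arrays the same distribution of signals, the first 30 had a median of −0.057. With equal distributions, a choice by wild-type brightness favours differences below 0, so this sign is no test either. The median of the first 30 was 0.083 with KO-nudx19 replicate 2 left out, 0.13 with wild type replicate 1, 0.29 with wild type replicate 2 and 0.36 with KO-nudx19 replicate 1. The hybridisation controls were also higher on both KO-nudx19 arrays, and their part in this was not tested.

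**Figure D1:**
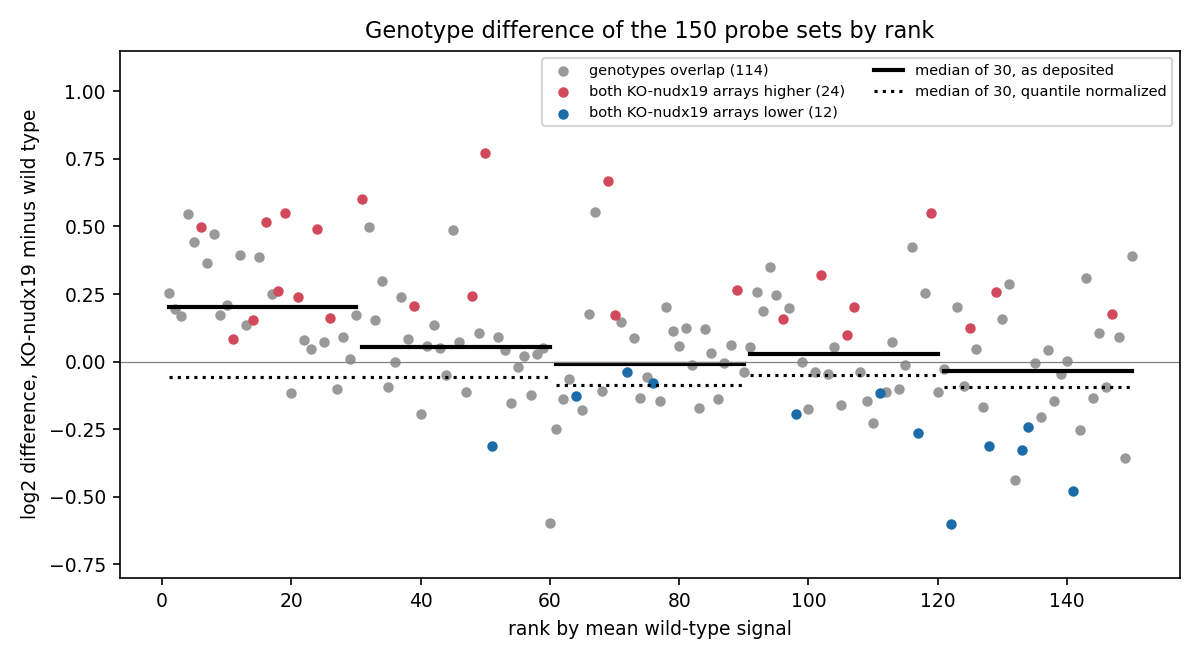
Log2 difference between KO-nudx19 and wild type (mean of 2 arrays each) of the 150 probe sets against their rank by wild-type signal. Points are probe sets, coloured by whether the genotypes overlap, and lines are medians of 30 probe sets as deposited (solid) and after quantile normalization (dotted). The first 30 have a median of 0.20 as deposited and of −0.057 after quantile normalization.

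The photosystem and thylakoid genes were higher on average in KO-nudx19 in 8 of 9 cases, with a median log2 difference of 0.26. Of the first 30 members by rank, whatever their role, 28 were above 0, with a median of 0.20. LHCB4.1, PSBY, ATPC1, PSBW and CURT1A are among these 30. Over all members 90 were above 0 and 60 below. Whether role had a part beyond brightness was not tested. In 2 of the 9 the genotypes did not overlap, both higher in KO-nudx19, where 10.5% of all tested probe sets were. In either direction 22.3% of all tested did not overlap. LHCB4.1, an antenna protein that links photosystem II to its outer light-harvesting complexes, had signals of 11592 and 13518 on the wild-type pair and 13481 and 16566 on the KO-nudx19 pair. KO-nudx19 replicate 1 lay just below wild type replicate 2, so the genotypes overlapped, with a log2 difference of 0.26 (SE 0.25). PSBY, a small photosystem II subunit, had 8760 and 12618 against 11098 and 13034. PSBW, a further small subunit, had 6132 and 8264 against 8255 and 10588, a log2 difference of 0.39, and wild type replicate 2 lay just above KO-nudx19 replicate 1. PSB27 had 4350 and 5761 on the wild-type pair and 7153 and 8046 on the KO-nudx19 pair, so that the lowest KO-nudx19 array was 1.24-fold above the highest wild-type array (log2 difference 0.60, SE 0.26).

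ATPC1, the gamma subunit of the plastid ATP synthase, had 8047 and 11205 on the wild-type pair and 9683 and 11782 on the KO-nudx19 pair, and overlapped. CURT1A and CURT1C belong to a family that bends thylakoid membranes at the edges of grana. CURT1A (AT4G01150) had 5702 and 8047 against 7594 and 10348. CURT1C (AT1G52220) had 3007 and 3057 against 3792 and 3776, a log2 difference of 0.32 (SE 0.22). Its arrays agreed closely within each genotype, and no single array moved its difference outside 0.31 to 0.33. PIFI, required for the rise of chlorophyll fluorescence after illumination, had 3275 and 5543 against 4509 and 4327. CaS, a calcium-sensing thylakoid protein, had 2412 and 3480 against 2292 and 2998, the only one of the 9 below 0 (−0.14). After quantile normalization the median of the 9 was −0.056, with PSB27 at 0.39, CURT1C at 0.24 and LHCB4.1 at −0.23. The wild-type arrays chose these genes, so the counts are no test.

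**Figure D2:**
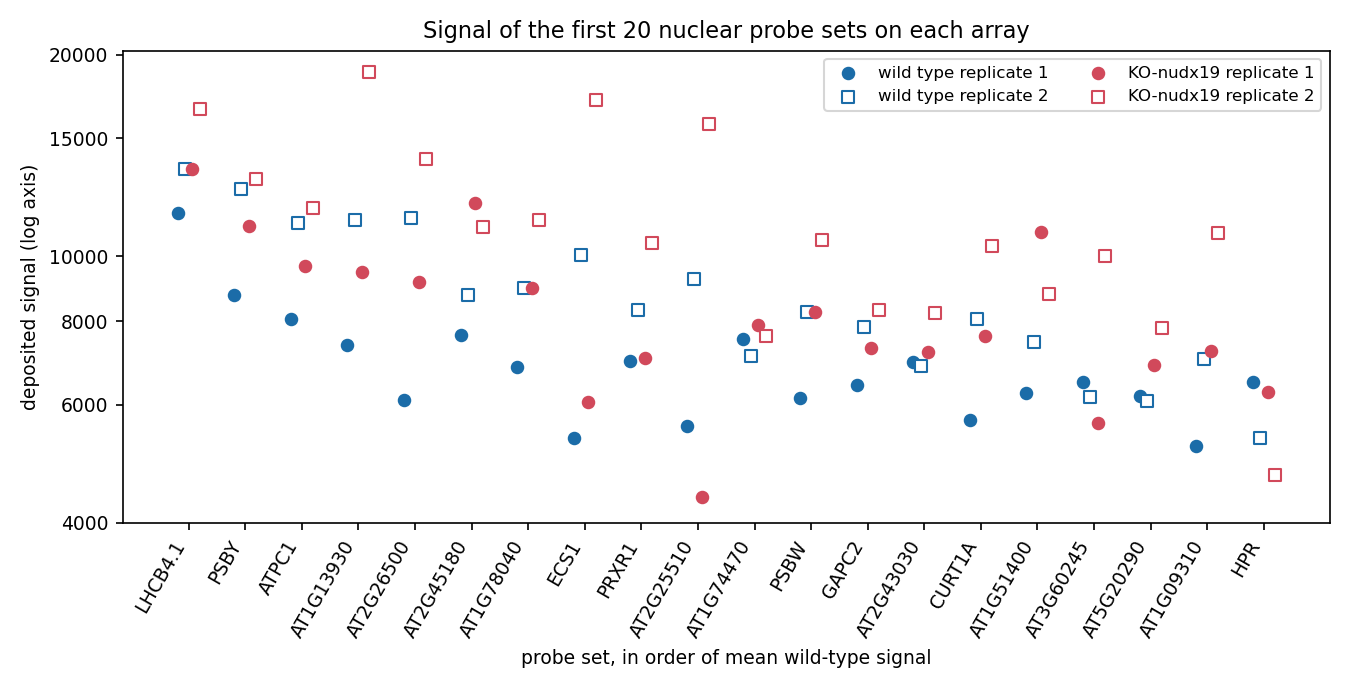
Deposited signal (log axis) of the first 20 members, in order of mean wild-type signal. Circles are the arrays numbered 1, squares those numbered 2, blue is wild type and red is KO-nudx19. AT1G13930, ECS1 and AT2G25510 are highest on KO-nudx19 replicate 2, at 18834, 17097 and 15733, while AT1G74470 stays between 7094 and 7893.

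The 3 chlorophyll synthesis genes differed little between the genotypes. AT1G74470, the geranylgeranyl reductase that makes the phytyl tail, had 7516 and 7094 on the wild-type pair and 7893 and 7600 on the KO-nudx19 pair. Both KO-nudx19 arrays were higher, by 1.01-fold at the nearest values. PORB, which reduces protochlorophyllide in the light, had 5533 and 4850 against 5923 and 5132. CHLM, the methyltransferase of magnesium-protoporphyrin IX, had 4704 and 4902 against 5100 and 3971. PORB and CHLM overlapped.

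All 4 genes of carbon metabolism overlapped, with log2 differences between −0.12 and 0.13. SBPASE, a phosphatase of the Calvin-Benson cycle, had 4277 and 5100 on the wild-type pair and 4118 and 5292 on the KO-nudx19 pair. HPR, the peroxisomal hydroxypyruvate reductase of photorespiration, had 6499 and 5350 against 6269 and 4716, and was lower on the arrays numbered 2 in both genotypes. The cytosolic glycolytic genes GAPC2 and TPI had 6412 and 7850 against 7303 and 8302, and 3613 and 4505 against 3753 and 4611.

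The 5 redox and respiration genes overlapped as well. PRXR1, a class III peroxidase, had 6974 and 8322 on the wild-type pair and 7037 and 10469 on the KO-nudx19 pair. ATHM2, a chloroplast m-type thioredoxin, had 3963 and 4998 against 4110 and 3691, with a log2 difference of 0.053 between the replicates 1 and −0.44 between the replicates 2. GRXC2, a glutaredoxin, had 1767 and 2984 against 2310 and 3917, a difference of 0.39 within both numbers. CYTC-1, the mobile electron carrier cytochrome c, had 2120 and 2657 against 2189 and 2921.

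Of the 13 members in other processes, 4 did not overlap, all higher in KO-nudx19, where 10.5% of all tested probe sets were. HIRD11 had 4590 and 3611 on the wild-type pair and 7152 and 6740 on the KO-nudx19 pair. Its lowest KO-nudx19 array was 1.47-fold above its highest wild-type array, and its log2 difference was 0.77 (SE 0.25, n = 2 each, limma adjusted p = 1.00). The difference ranged from 0.60 to 0.94 when single arrays were left out, and was 0.62 after quantile normalization. AILP1 had 4879 and 6166 on the wild-type pair and 7308 and 8140 on the KO-nudx19 pair. TUA6, an alpha-tubulin, had 2942 and 3082 against 3287 and 3647, and APA1, a vacuolar aspartic protease, had 2604 and 2835 against 2871 and 3048. These 3 lay apart by 1.19-fold, 1.07-fold and 1.01-fold at their nearest values.

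The other members of this group overlapped. SAMDC, an enzyme of polyamine synthesis, had 5164 and 5311 on the wild-type pair and 4449 and 5346 on the KO-nudx19 pair. CCL, whose transcript is known for decay controlled by the circadian clock, had 3832 and 6052 against 6253 and 5607. DI19, a drought-induced zinc finger protein, had 1803 and 3873 against 3635 and 3455. For both CCL and DI19 wild type replicate 1 was the low array, and the genotype difference was above 0 between the replicates 1 (0.71 and 1.01) and below 0 between the replicates 2 (−0.11 and −0.16). UBC28, a ubiquitin-conjugating enzyme, had 3140 and 3852 against 3833 and 3688, and NCL (AT1G53210), a sodium and calcium exchanger, had 2290 and 2671 against 2474 and 2322.

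**Figure D3:**
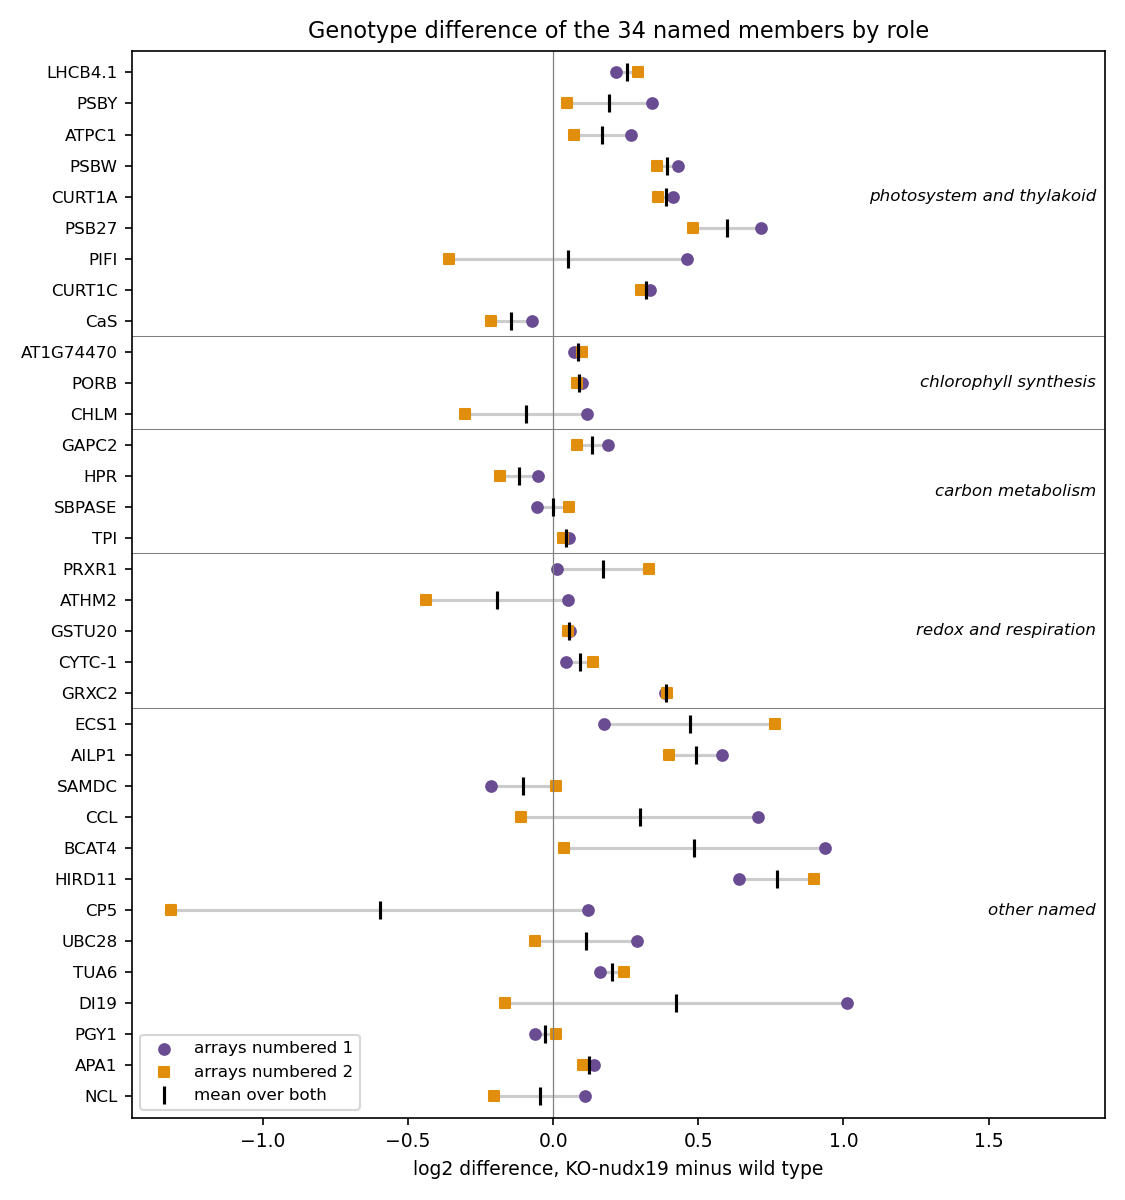
Log2 difference between KO-nudx19 and wild type of the 34 members with a name or described function, grouped by role and ordered by rank within each role. Circles compare the arrays numbered 1, squares those numbered 2, and bars mark the mean. HIRD11 and PSB27 are above 0 for both numbers (0.64 and 0.90, 0.72 and 0.48), while DI19, CCL, PIFI and CP5 lie on opposite sides of 0.

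Among the first 20 members, 10 are known by locus only, and all 10 had a log2 difference above 0. So had the other members of the first 20 except HPR. AT2G43030 had 6963 and 6852 on the wild-type pair and 7189 and 8215 on the KO-nudx19 pair, and AT5G20290 had 6182 and 6072 against 6890 and 7814. AT1G51400 had 6246 and 7451 against 10864 and 8770, and AT1G09310 had 5200 and 7026 against 7230 and 10820. In these 4 the genotypes did not overlap, with gaps from 1.03-fold to 1.18-fold at the nearest values. Of all tested probe sets 10.5% were higher in KO-nudx19 without overlap. AT1G78040, with 6839 and 8977 against 8963 and 11344, overlapped by a narrow margin. AT3G60245, with 6489 and 6158 against 5638 and 10001, had its highest and its lowest value in KO-nudx19. AT2G26500 had 6107 and 11389 against 9163 and 13987, and overlapped. After quantile normalization AT2G43030 and AT3G60245 turned to −0.12 and −0.030, and AT2G25510 to −0.13.

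Among the 116 members known by locus only, 17 did not overlap and were higher in KO-nudx19, where 10.5% of all tested were, and 12 did not overlap and were lower, where 11.8% were. The other 87 overlapped, and the median log2 difference was 0.047. The wild-type arrays chose these members, and nothing is read from the counts. All 12 members that were lower in KO-nudx19 without overlap belonged to this group, which holds 116 of the 150 members. With the widest gap at the nearest values, AT5G54940 had 2796 and 2718 on the wild-type pair and 3825 and 4256 on the KO-nudx19 pair, 1.37-fold apart. AT2G45180 had 7625 and 8748 against 12022 and 11060, 1.26-fold apart. AT5G27700, singled out for its difference of 0.67, had 2809 and 4551 against 5068 and 6357 and did not overlap. The lower members were led by AT5G28500, with 2335 and 2605 against 1790 and 1750, 1.30-fold apart. AT5G11420 had 2559 and 2930 against 2082 and 1569, and AT1G48830 had 2770 and 2354 against 2087 and 1990, 1.23-fold and 1.13-fold apart. AT4G29020, AT4G16720 and AT3G08740 followed with gaps of 1.08-fold, 1.07-fold and 1.06-fold. Apart from AT4G16720, at rank 51, these 6 lay between ranks 117 and 141 in wild type, near the limit that chose the 150.

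The KO-nudx19 arrays, which the ranking did not use, gave nearly the same list. Ranked by the mean of the KO-nudx19 arrays, 134 of the 150 were again among the first 150, and 18 of the first 20 among the first 20. LHCB4.1 was first in both. The 16 that left all stood between ranks 117 and 149 in wild type, and the farthest fell to rank 241 (AT5G28500). Among the 16 that entered, AT5G44580 came from farthest, with 1206 and 1317 on the wild-type pair and 3396 and 1790 on the KO-nudx19 pair. GAMMA-VPE, a vacuolar processing protease and the only one of the 16 with a name, had 2078 and 2021 against 2975 and 2180. In both, KO-nudx19 replicate 1 was the highest array. They were singled out after their values were seen.

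The replicate number separated some of the members far more than the genotype did. The fit between the arrays numbered 2 and those numbered 1, with genotype as a term, includes the wild-type values that chose the members, and a mean of 2 arrays favours probe sets carried by 1 bright array. Its calls are therefore given as counts beside those of all tested probe sets and not as a test of the members. The KO-nudx19 arrays, which the choice did not use, are given apart. In limma 10 members were higher on the arrays numbered 2 at an adjusted p under 0.05, where 4.93% of all tested probe sets were, and 2 were lower, where 6.32% were. The total of 12 members is 8% of the 150, beside 11.2% of all tested probe sets. By direction, 6.67% of the members were called higher and 1.33% lower. Without the filter on dim probe sets the count was 0 for the members and 0 for all tested probe sets. Over all members the median log2 difference between the numbers was 0.20 for the wild-type pair and 0.16 for the KO-nudx19 pair, against −0.046 and −0.053 over all tested probe sets. At least 2-fold higher on number 2 were 5 members in wild type, where 3.57% of all tested were, and 5 in KO-nudx19, where 4.87% were. At least 2-fold lower were 1 and 4 members, where 6.02% and 4.78% were. The log2 difference was above 0 in both genotypes for 80 members, below 0 in both for 26 and of opposite sign for 44.

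AT3G22240 had the highest difference, with 2252 and 7811 on the wild-type pair and 2463 and 14234 on the KO-nudx19 pair (log2 difference 2.16). Both arrays numbered 2 were more than 3-fold above both numbered 1. GSTU20, a tau-class glutathione S-transferase, had 1307 and 4751 against 1361 and 4922, ratios of 3.63 (wild type) and 3.62 (KO-nudx19). BCAT4, the aminotransferase that starts the methionine chain elongation of glucosinolate synthesis, had 1491 and 7214 against 2851 and 7401, ratios of 4.84 and 2.60. On wild type replicate 1 alone GSTU20 would have ranked 340 and BCAT4 281, while on replicate 2 they ranked 44 and 16, so their membership rested on the array where they were high. GRXC2, the last member, ranked 209 on replicate 1 and 117 on replicate 2, and AT4G16450 ranked 198 and 119.

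Among the first 10 members, AT2G25510 had 5573 and 9238 on the wild-type pair and 4363 and 15733 on the KO-nudx19 pair, and ECS1, which encodes a small cell wall protein, had 5362 and 10056 against 6055 and 17097. AT1G13930 had 7371 and 11335 against 9470 and 18834. Their log2 differences between the numbers ran from 0.81 to 1.29. In these 3 the numbers differed more in KO-nudx19 than in wild type, and that difference between the genotypes was not tested. The remaining members called higher on number 2 were AT2G26500, GRXC2, AT4G16450 and AT1G29670, with log2 differences from 0.61 to 0.76.

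Lower on the arrays numbered 2 were AT1G09750, with 3522 and 1461 on the wild-type pair and 3355 and 1157 on the KO-nudx19 pair (log2 difference −1.40), and CP5, with 4535 and 3280 against 4926 and 1318 (−1.18). AT1G09750 ranked 68 on wild type replicate 1 and 333 on replicate 2, so its membership rested on the array where it was high, and between the KO-nudx19 arrays it was 2.90-fold lower on replicate 2. CP5 was 3.74-fold lower on replicate 2 than on replicate 1 in KO-nudx19 and 1.38-fold lower in wild type, and its genotype difference of −0.60 was 0.35 without KO-nudx19 replicate 2. The poly(A) controls, lower on both arrays numbered 2, moved with this split, and their part in it was not tested.

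**Figure D4:**
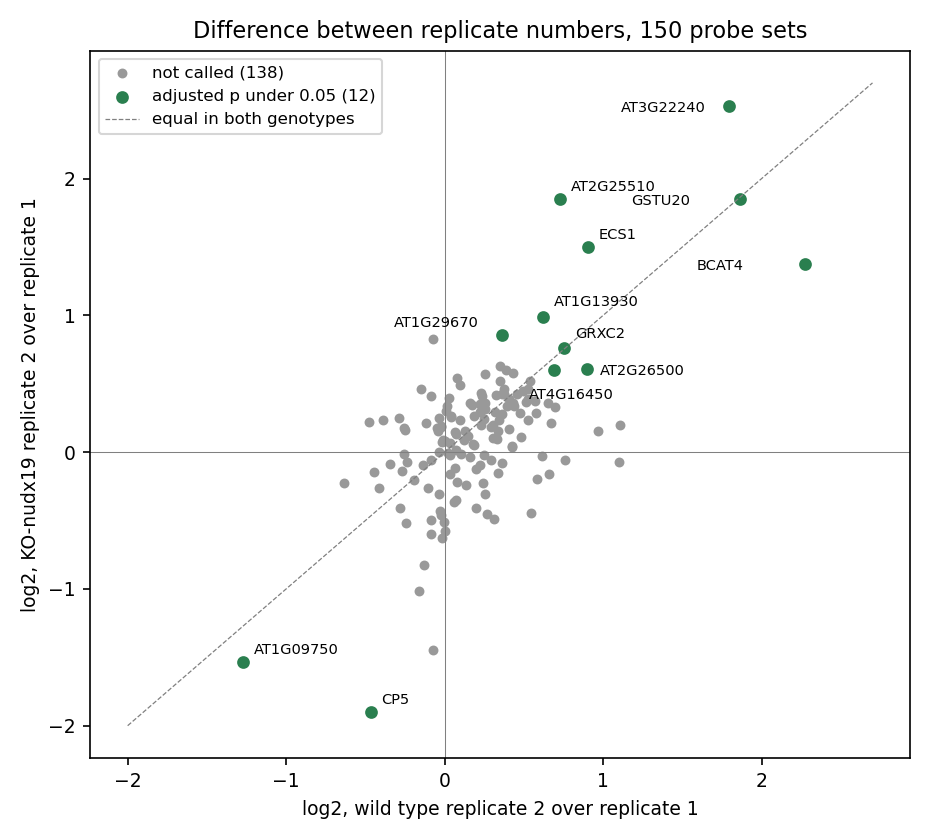
Log2 ratio of replicate 2 over replicate 1 in wild type (horizontal) and in KO-nudx19 (vertical) for the 150 probe sets. Green points passed limma's test between the numbers at an adjusted p under 0.05, and the dashed line marks an equal ratio in both genotypes. GSTU20 lies on that line, AT3G22240 and AT2G25510 above it, and BCAT4 below it.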

How the data were processed

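The authors deposited linear intensity values, a single one for each probe set on each array, made with GCOS per the submitters' processing notes. The sources used here do not give the software version, the background correction or the probe summary. Every array had a trimmed mean of 200 (2% left out at each end), as scaling to a common mean gives. This leaves differences among the brightest probe sets in place.

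Probe sets were named through the platform's table, with symbols updated from RefSeq's TAIR10.1 genes (13436 of 13513 matched, 149 of the 150 members). The members' genes known by locus only are given no function. A floor of 8.92, the 20th percentile over all arrays, was applied before taking log2, 64 control probe sets and those with a mean below the 40th percentile (38.2) were left out, and limma 3.58.1 in R 4.3.3 (lmFit, eBayes with a trend, Benjamini-Hochberg) was run on the remaining 13648. With 2 arrays per genotype the smallest two-sided p of an exact permutation test is 0.333. The fits were run on simulated arrays with 200 changed probe sets per comparison. Their noise was independent between arrays, with the spread left after genotype and number were fitted. In the data same-numbered arrays deviated together, so the simulation does not show how the fits perform on these arrays.

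Members, lists and tests were chosen with earlier results of these data known. Text names the first 20 members, up to 4 per role, the widest gaps between genotypes, the members called by number and those at the limit. All 34 members with a name or function are also given, and others were chosen after their values were seen. Alternatives were quantile normalization, median centring, other floors and filters, eBayes without a trend, a replicate block, other rankings and each array left out. Promoter motifs and protein lengths were planned and not analysed here. Nor were planned lists for translation factors, ubiquitin and proteolysis, chaperones, glycine-rich RNA-binding proteins, defence and glucosinolates, and genes of no known function. Figures used matplotlib 3.10.9.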

Additional observations from a re-analysis of the deposited data

How the results depend on the processing

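No member passed limma's genotype test at an adjusted p of 0.05 under any scaling, floor, filter, variance setting, ranking or left-out array run. The counts of members whose genotypes did not overlap (24 higher, 12 lower in KO-nudx19) became 14 and 33 after quantile normalization and 15 higher after centring on the median. Leaving out any 1 of the 4 arrays, which makes separation easier, gave 31 to 77 higher and 21 to 47 lower. For the left-out arrays and both scalings the shares of all tested probe sets are not given here. Nothing is read from those counts. Ranking by the KO-nudx19 arrays, chosen after seeing the data, gave 6 lower, where 11.8% of all tested were lower. The median log2 difference of the members ranged from −0.061 to 0.16 over left-out arrays and turned to −0.064 after quantile normalization. That of the first 30 members turned to −0.057 after quantile normalization, with or without the replicate block. The cause of these changes was not tested. With replicate number as a block, limma called 2 of all tested probe sets, against 0 without it, and 0 members. At an unadjusted p under 0.05 it gave 20 members, where 5.41% of all tested passed. Same-numbered arrays deviated together (correlation 0.553 over tested probe sets, 0.636 over members). Together with quantile normalization the block called 93 of all tested probe sets and 0 members. Leaving out 1 array gave 0 to 10 genotype calls over all tested probe sets, the 10 without wild type replicate 1. Between the numbers, the 12 member calls became 0 without a filter on dim probe sets, 7 with eBayes without a trend and 6 without genotype in the fit. For the 7 and the 6 calls the share of all tested probe sets is not given here, so nothing is read from them. Over all tested probe sets the 1535 calls became 0 without that filter and 1012 with a filter at the 60th percentile. The fit between numbers could not be made without any 1 array, since no residual degree of freedom remains. Of the members, 134 ranked in the first 150 of KO-nudx19, and 127 to 136 with other rankings of the wild-type arrays.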
